A study of Mus musculus with 6 samples.

Results

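Axon guidance ligands and receptors were examined in neurospheres, the clusters that neural progenitors form in suspension culture, from mouse embryos at E14.5. The set held the protein-coding genes of the deposited table that are named as Eph receptors, ephrins, semaphorins of classes 3 to 7, plexins, neuropilins, Slit or Robo proteins, netrins, Unc5 receptors or Dcc. These were 68 of the 54532 genes in the table. Of the 68, 34 encode ligands and 34 receptors, and 65 had enough reads to be tested. Sema3g, Robo4 and Ntn5 did not, with at most 8, 16 and 13 reads in any library.

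RNA was sequenced from 3 wild-type (WT) libraries, which carry the numbers 3, 6 and 7, and from 3 libraries of an Ash2l conditional knockout (KO), numbered 1, 2 and 3. Both groups were on the C57BL/6 strain and were grown for 6 days with EGF and bFGF at 20 ng/ml each. The knockout was made with D6-Cre, a transgene active in the dorsal forebrain, and it targets Ash2l, which encodes a shared subunit of the COMPASS complexes that methylate lysine 4 of histone H3. No further allele of the WT embryos is given in the labels, and they do not say if each library is its own embryo or culture, so p-values reflect only how far these libraries scatter, possibly for technical reasons. The tissue is labelled as dorsal cortex, while the protocol describes dissecting lateral ventricle walls. Library values are given below in the order 3, 6, 7 for WT and 1, 2, 3 for KO.

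Guidance ligands and their receptors steer growing axons and migrating neurons by attraction or repulsion. Ephrins are membrane-bound ligands of the Eph receptor tyrosine kinases, and both partners can signal. Semaphorins act through plexins, with neuropilins as coreceptors for most class 3 members, Slits through Robo receptors, and netrins through Dcc and the Unc5 receptors. In the developing cortex these families also act on progenitors and glia, so their transcripts are not limited to neurons.

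Total counts ran from 16764480 to 21983659 per library. Ash2l itself measured 116, 113 and 109 CPM (counts scaled to library size, normalised by TMM) in the WT libraries, and 86.3, 99.3 and 102 CPM in KO. The groups did not overlap, but the log2 fold change of -0.24 (SE 0.10) missed the threshold (edgeR quasi-likelihood test with Benjamini-Hochberg adjustment, adjusted p = 0.119), and which exons were deleted is not given in the sources used here. On the first principal component of log2 CPM, which held 69.9% of the variance, WT 3 lay at -25.5, nearer to the KO libraries (53.5 to 76.8) than WT 6 and WT 7 did (-81.7 and -85.7). Results are therefore given with and without WT 3. Because it was singled out from these same data as the WT library nearest to KO, p-values without it are descriptive only. Markers of other cells also moved between the groups. Of 16 oligodendrocyte lineage markers 12 were lower in KO, with summed levels of 5068 to 6724 CPM in WT and 1195 to 2219 CPM in KO. Of 12 astrocyte markers 9 were lower (7489 to 21275 CPM against 2221 to 3326 CPM), all 8 markers of cycling cells were higher (180 to 345 CPM against 1725 to 2233 CPM), and 4 of 15 neuronal markers were higher (1455 to 2844 CPM against 2951 to 4444 CPM), with WT 3 the highest WT library. Of 10 radial glia markers 1 was higher and 4 were lower (3797 to 5121 CPM against 3609 to 5699 CPM), and of 5 tested markers of intermediate progenitors 2 were lower (229 to 316 CPM against 118 to 198 CPM). Of 10 endothelial markers 7 stayed under 1 CPM in every library, with sums of 3.59 to 7.48 CPM, and none of these markers was at 0 in all 6 libraries. Of 9 tested mural and meningeal markers 2 were higher. The sum of all 12 such markers was 707 CPM in KO 1 against 46.5 and 89.3 CPM in KO 2 and KO 3 and 36.7 to 51.6 CPM in WT. The share that passed was 26.7% of the neuronal and 22.2% of the tested mural and meningeal markers, where 29.0% of all tested genes passed.

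The promoter stretches of the 3 B plexins, of which 2 fell in KO, and of Efnb2, the ephrin that rose, are shown from 250 to 51 bases before the start, 5′ to 3′ on the gene's strand (RefSeq, GRCm38.p6). Capitals mark CG dinucleotides, since CpG-rich promoters commonly carry H3K4 methylation. The stretches are chr9:109095186-109095385, plus strand for Plxnb1, chr15:89180839-89181038, minus strand for Plxnb2, chrX:73756853-73757052, plus strand for Plxnb3 and chr8:8661293-8661492, minus strand for Efnb2.
Plxnb1: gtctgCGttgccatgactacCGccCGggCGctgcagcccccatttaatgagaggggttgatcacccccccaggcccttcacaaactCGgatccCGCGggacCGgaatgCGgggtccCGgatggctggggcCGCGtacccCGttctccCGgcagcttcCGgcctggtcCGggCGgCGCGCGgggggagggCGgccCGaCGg
Plxnb2: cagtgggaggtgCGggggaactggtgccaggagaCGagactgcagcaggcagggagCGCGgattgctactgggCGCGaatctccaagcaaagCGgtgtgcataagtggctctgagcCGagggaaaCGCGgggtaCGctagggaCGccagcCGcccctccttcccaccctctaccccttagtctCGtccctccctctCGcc
Plxnb3: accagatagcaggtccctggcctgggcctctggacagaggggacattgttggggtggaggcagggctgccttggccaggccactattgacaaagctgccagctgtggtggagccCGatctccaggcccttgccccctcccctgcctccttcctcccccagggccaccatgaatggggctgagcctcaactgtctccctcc
Efnb2: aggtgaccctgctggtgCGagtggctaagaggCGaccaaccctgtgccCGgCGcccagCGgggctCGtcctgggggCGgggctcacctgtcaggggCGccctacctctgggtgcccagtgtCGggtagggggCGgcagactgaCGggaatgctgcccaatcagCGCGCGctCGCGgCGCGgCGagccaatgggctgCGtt

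The Plxnb1 stretch held 23 CG dinucleotides and the Plxnb2 stretch 15, whereas that of Plxnb3 held 1. Efnb2 had 20. RefSeq promoters were found for 58 of the 68 guidance genes, and these held a median of 13 CG dinucleotides, against 4 over all 32851 starts in the same table, which include those of noncoding genes. The medians were 13 for the 5 genes that rose and 12.5 for 8 that fell. The GC box GGGCGG, searched on both strands, stood in 58.6% of the 58 stretches and 24.6% of all starts. TCAAAG, the core of the motif bound by TCF/LEF factors, also searched on both strands, stood in 5.2% and 11.8% and in none of the 13 stretches of genes that rose or fell. The start used lay far from the start in the deposited table for Robo1 (354843 bases), Sema3a (271370 bases) and Sema4d (37064 bases), and 1611 bases from it for Plxna2. These matches describe the letters in the window only.

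Of the 65 tested guidance genes 5 rose and 9 fell in KO at an adjusted p under 0.05 in edgeR's quasi-likelihood test. That was 21.5% of the 65, below the 29.0% of all 16606 tested genes that passed. This order turned in 3 other fits of all 6 libraries. The shares of guidance genes and of all genes were 39.7% and 28.6% in DESeq2, 53.8% and 48.5% in limma-voom with quality weights, and 38.2% and 15.6% without an expression filter. The fit without a filter took in 32290 genes, with many low counts added, but only 68 guidance genes. Its shares therefore compare unlike sets. In separate directions 7.69% of the guidance genes rose, where the background was 13.5%, and 13.8% fell, where it was 15.5%. Efnb2, Nrp1, Plxna2, Slit2 and Robo3 rose, and Plxnb3, Plxnb1, Sema5a, Sema6a, Sema5b, Ephb3, Unc5c, Robo2 and Epha5 fell. Receptors made up 9 of these 14 genes and ligands 5. The median log2 fold change of the 65 genes was 0.25, against 0.0019 over all tested genes, and 39 values were positive and 26 negative. The groups did not overlap in 25 guidance genes, or 38.5%, where the background was 48.6%. KO lay above WT in 13 of the 65 tested guidance genes and below it in 12, where the background was 23.5% and 25.2% of all tested genes.

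**Figure D1:**
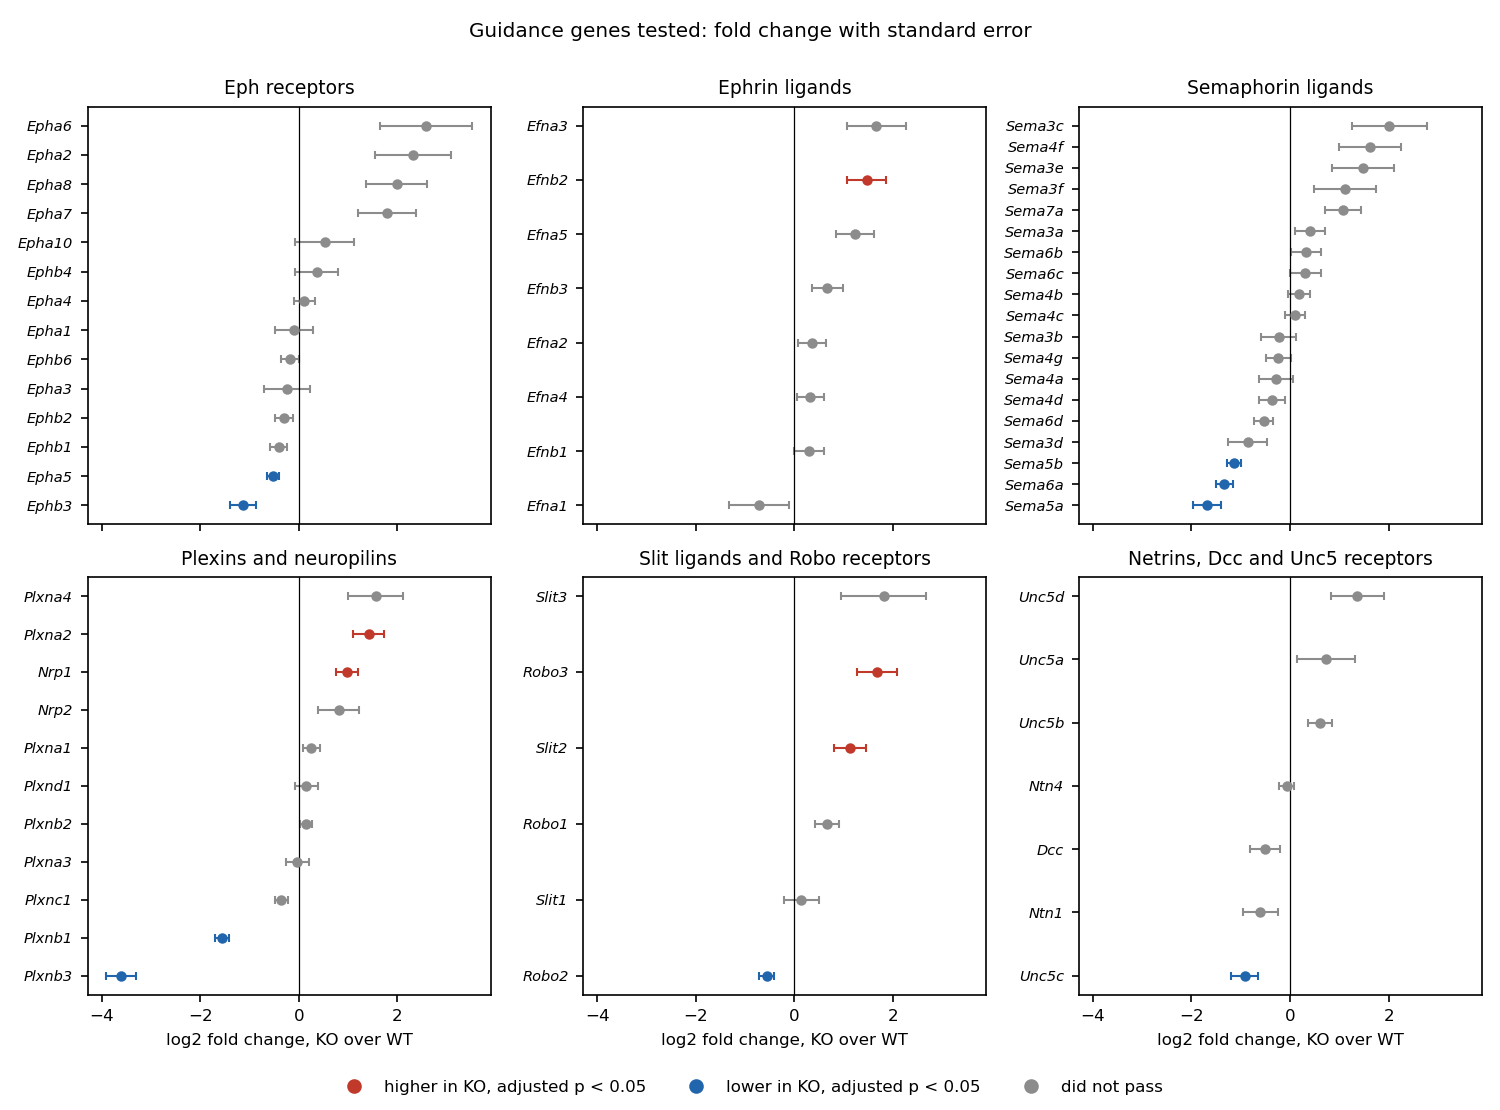
Log2 fold change of KO over WT (x axis) for each of the 65 tested guidance genes, with its standard error as a bar, in 6 families. The genes that passed the test are coloured by direction, and the B plexins Plxnb3 and Plxnb1 stand at -3.61 and -1.56, while several genes that did not pass lie above 1.

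Only 5 of the 14 calls held whichever library was left out, and all 5 were of genes that fell, namely Plxnb3, Plxnb1, Sema5a, Sema5b and Sema6a. Without WT 3 all 14 calls were kept and 21 more were made, 19 of them higher in KO and 2 lower. The counts were then 24 higher and 11 lower, or 53.8% of the 65, where the background was 38.2% in either direction, 20.2% higher and 18.1% lower. Without WT 6 the counts were 0 higher and 5 lower, or 7.69% where the background was 12.8%. Without WT 7 they were 1 and 7 (12.3%, background 14.4%), and without KO 1 they were 1 and 9 (15.4%, background 16.8%). Without KO 2 they were 1 and 5 (9.23%, background 14.6%), and without KO 3 they were 8 and 6 (21.5%, background 25.1%).

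**Figure D2:**
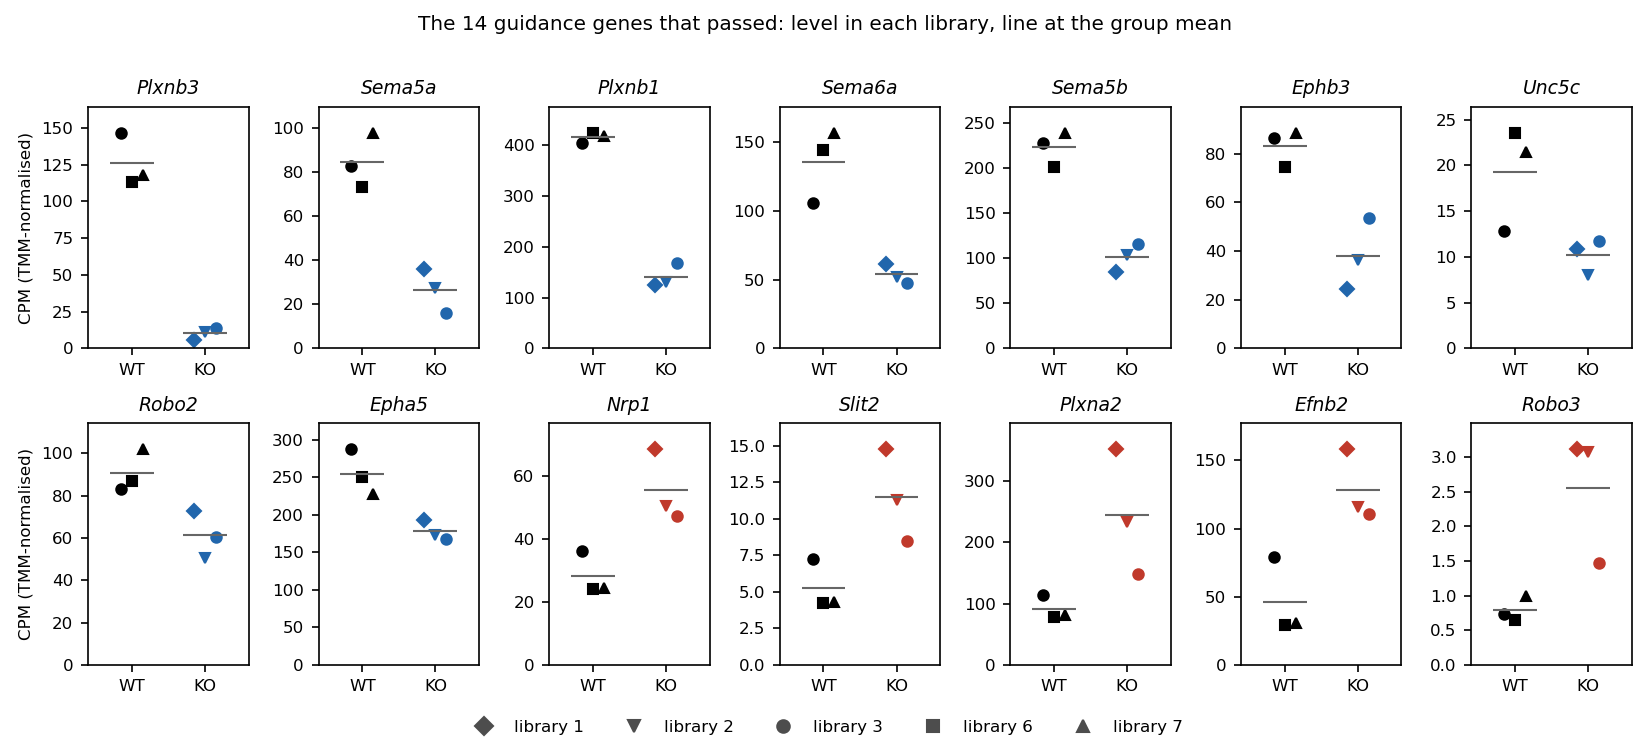
Level of the 14 guidance genes that passed, in TMM-normalised CPM (y axis, from 0), with a symbol for each library and a line at the group mean. No gene overlaps between WT and KO, and KO 1 is the highest KO library for all 5 genes that rose.

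Among the receptors of semaphorins, 2 of the 3 B plexins fell. Plexin-B3 (Plxnb3, ENSMUSG00000031385, chromosome X from 73757090 to 73772514 on mm10), a receptor for Sema5a, measured 147, 113 and 118 CPM in WT and 5.94, 11.3 and 13.6 CPM in KO. Each KO library held less than any WT library, and the gene was 12.2-fold lower (log2 fold change -3.61, SE 0.31, adjusted p = 0.00103). Plexin-B1 (Plxnb1, ENSMUSG00000053646, chromosome 9 from 109095389 to 109119917), a receptor for Sema4d, measured 404, 424 and 418 CPM in WT and 124, 131 and 167 CPM in KO. The WT values lay close together and the KO values far below them, at 2.95-fold lower (log2 fold change -1.56, SE 0.14, adjusted p = 0.00121). Plexin-B2 (Plxnb2, chromosome 15 from 89155549 to 89180788), another receptor for class 4 semaphorins and the plexin with the highest mean FPKM, measured 284, 267 and 306 CPM in WT and 300, 304 and 344 CPM in KO. These groups overlapped, and the log2 fold change was 0.15 (SE 0.11, adjusted p = 0.349).

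Per length, the makeup of the B plexins therefore differed between the groups. The 3 genes summed to 97.5 ± 5.32 FPKM in WT and 58.3 ± 5.48 FPKM in KO (SD, n = 3 each), where FPKM is the deposited level scaled to gene length and library size. Plxnb1 had the highest FPKM of all plexins in WT (42.3 ± 0.412 FPKM) and Plxnb2 the next (36.2 ± 2.68 FPKM). In KO Plxnb2 stood first at 41.7 ± 2.78 FPKM, Plxna1 at 24.2 ± 4.84 FPKM, Plxna3 at 17.2 ± 3.20 FPKM, and Plxnb1 at 14.9 ± 2.27 FPKM. The share of Plxnb2 in the B plexin sum was 37.1% ± 1.77 in WT and 71.7% ± 2.08 in KO (SD, n = 3 each), a description with no test. The KO fold of Plxnb3 and Plxnb1 ran in the same direction as the oligodendrocyte and astrocyte marker sums, and the part of these cells in the result was not tested. Within WT, WT 3 had the highest oligodendrocyte sum, and the lowest astrocyte sum (7489 CPM against 19282 and 21275 CPM). It was the highest WT library for Plxnb3. It was also the lowest for Plxnb1, whose WT values differed little (404, 424 and 418 CPM). In bulk RNA, fewer cells of a type and less RNA per cell cannot be told apart.

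**Figure D3:**
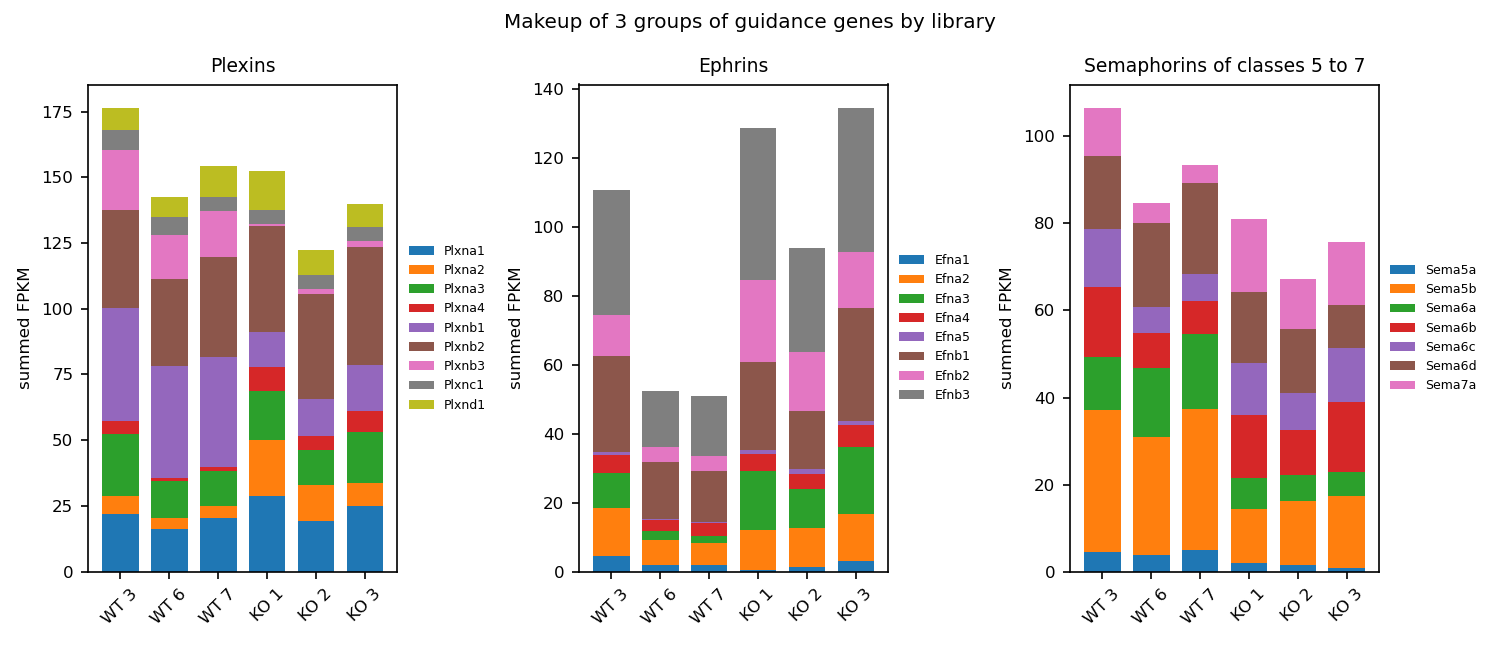
Summed FPKM (y axis, from 0) of the plexins, the ephrins and the semaphorins of classes 5 to 7 in each library, with 1 colour per gene. Plxnb1 and Plxnb3 are smaller in the KO bars, Sema5b, Sema6a and Sema5a likewise, and the ephrin bars of WT 6 and WT 7 are the lowest of the 6.

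Of the A plexins, receptors for class 6 semaphorins and, with neuropilins, for class 3, Plxna2 rose. It measured 114, 78.2 and 82.0 CPM in WT and 352, 233 and 148 CPM in KO, with no overlap. The gene (ENSMUSG00000026640, chromosome 1 from 194618218 to 194816869) was 2.67-fold higher (log2 fold change 1.42, SE 0.32, adjusted p = 0.0179). The call ended without WT 6 (adjusted p = 0.0711), WT 7 (0.0652) or KO 2 (0.0535). The other 3 A plexins did not pass in this edgeR fit, with log2 fold changes of -0.03 for Plxna3, 0.25 for Plxna1 and 1.56 for Plxna4. Plxna4 did pass in DESeq2, in limma-voom and without an expression filter. Plxnc1, the receptor of Sema7a, stood at -0.36 (SE 0.13, adjusted p = 0.0826) with KO wholly below WT, and Plxnd1, the receptor of Sema3e, at 0.16 (SE 0.24) with overlapping groups.

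Neuropilins bind class 3 semaphorins and forms of VEGF. Nrp1 (ENSMUSG00000025810, chromosome 8 from 128358604 to 128503363) measured 36.1, 23.9 and 24.2 CPM in WT and 68.3, 50.4 and 47.2 CPM in KO. All KO values lay above all WT values, and Nrp1 was 1.97-fold higher (log2 fold change 0.98, SE 0.22, adjusted p = 0.0181). Its call ended without WT 6 (adjusted p = 0.0711), WT 7 (0.0660) or KO 1 (0.0532). Nrp2 had a log2 fold change of 0.81 (SE 0.42) with overlapping groups and did not pass (adjusted p = 0.182), but did without KO 3 (1.17, adjusted p = 0.0348). Endothelial cells are known to express Nrp1. The summed level of their markers was 5.26 to 7.48 CPM in WT and 3.59 to 7.09 CPM in KO, and its part in the result was not tested. The mural and meningeal marker sum was highest in KO 1, where Nrp1, Plxna2, Efnb2, Slit2 and Robo3 were also highest. So were the marker sums of neurons (4444 CPM), ventral interneurons (180 CPM) and microglia (26.2 CPM). In KO 2 the mural and meningeal sum (46.5 CPM) lay within the WT range. The part of any of these cells in the 5 rises was not tested. Without KO 1 the log2 fold changes were 0.83 for Nrp1, 1.09 for Plxna2, 1.31 for Efnb2, 0.93 for Slit2 and 1.54 for Robo3, of which Plxna2 passed (adjusted p = 0.0402).

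Among the semaphorins themselves, 3 transmembrane members fell. None of the 19 tested passed as higher in the edgeR fit of all 6 libraries. Sema5b (ENSMUSG00000052133, chromosome 16 from 35541145 to 35664732), the semaphorin with the highest mean FPKM, measured 228, 201 and 239 CPM in WT and 84.5, 103 and 116 CPM in KO. It was 2.20-fold lower (log2 fold change -1.14, SE 0.14, adjusted p = 0.00288). Its class 5 partner Sema5a (ENSMUSG00000022231, chromosome 15 from 32244810 to 32696341), a ligand of plexin-B3, measured 82.9, 73.4 and 97.9 CPM in WT and 35.9, 27.3 and 16.2 CPM in KO. Neither gene overlapped between the groups, and Sema5a was 3.21-fold lower (log2 fold change -1.68, SE 0.28, adjusted p = 0.00679). Sema6a (ENSMUSG00000019647, chromosome 18 from 47235598 to 47368870), a ligand of plexins A2 and A4, measured 106, 144 and 157 CPM in WT and 61.7, 51.7 and 47.9 CPM in KO. Its lowest WT library was WT 3, still above every KO library, and it was 2.52-fold lower (log2 fold change -1.34, SE 0.18, adjusted p = 0.0033). Without WT 3 the 3 values were -1.12, -1.70 and -1.49.

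The remaining 10 tested semaphorins of classes 4 to 7 lay between -0.54 for Sema6d and 1.63 for Sema4f. They did not pass in the edgeR fit of all 6 libraries. With all 6 libraries Sema4f and Sema7a passed as higher in DESeq2, in limma-voom and without an expression filter. Sema6d passed as lower in limma-voom only. Without WT 3, Sema4f (2.77), Sema7a (1.62), Sema6c (0.76) and Sema6b (0.71) passed as higher and Sema6d (-0.64) as lower. Sema4d, the ligand of plexin-B1, stood at -0.37 (SE 0.26) with overlapping groups. Of the 6 tested class 3 semaphorins, which are secreted, 0 passed in the edgeR fit of all 6 libraries. Positive values were seen in 4, in a range from -0.86 for Sema3d to 2.02 for Sema3c. With all 6 libraries Sema3c passed as higher in DESeq2, in limma-voom and without an expression filter. Sema3e did so in DESeq2 only and Sema3f in limma-voom only. When 1 library was left out, Sema3d passed without WT 7 (-1.20, adjusted p = 0.0332), Sema3f without WT 3 (2.14, adjusted p = 0.00514), Sema3e without KO 3 (1.93, adjusted p = 0.0217), and Sema3c without WT 3 (2.78, adjusted p = 0.0246) or KO 3 (2.49, adjusted p = 0.0256). They were low per length. The 7 class 3 genes summed to 5.61 ± 3.14 FPKM in WT and 9.39 ± 2.34 FPKM in KO, against 151 ± 23.8 and 133 ± 14.8 FPKM for the 13 genes of classes 4 to 7 (SD, n = 3 each).

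Of the 8 ephrins 1 rose and none passed as lower. Efnb2 (ENSMUSG00000001300, chromosome 8 from 8617434 to 8661242), a ligand of EphB receptors and of Epha4, measured 79.2, 29.4 and 30.7 CPM in WT and 158, 116 and 111 CPM in KO. WT 3 was far above the other WT libraries yet below all KO libraries. The gene was 2.76-fold higher (log2 fold change 1.47, SE 0.40, adjusted p = 0.0335), and its log2 fold change was 2.09 without WT 3. The call ended without any 1 of the other libraries, at adjusted p = 0.0989 without WT 6, 0.0963 without WT 7, 0.0963 without KO 1, 0.0805 without KO 2 and 0.0552 without KO 3. Efnb3, the ephrin with the highest mean FPKM, measured 114, 54.4 and 58.1 CPM in WT and 135, 93.6 and 132 CPM in KO. Its groups overlapped through WT 3 and KO 2, and it missed the threshold at a log2 fold change of 0.67 (SE 0.31, adjusted p = 0.137). It passed without WT 3 (1.09, adjusted p = 0.00367) and in limma-voom with quality weights (0.95, adjusted p = 0.0075). None of the 5 A-type ephrins passed in the edgeR fit of all 6 libraries, and 4 of them had positive values. With all 6 libraries Efna3 and Efna5 passed as higher in DESeq2, in limma-voom and without an expression filter. Efna2 did so in limma-voom only. Without WT 3, Efna3 (2.71), Efna5 (1.57) and Efna2 (0.73) passed. Per length, the 3 B-type ephrins summed to 76.0, 37.0 and 36.7 FPKM in WT and to 93.1, 63.9 and 90.9 FPKM in KO. The A-type sums were 34.6, 15.4 and 14.3 FPKM in WT and 35.4, 29.8 and 43.6 FPKM in KO, so that WT 3 lay within the KO range for both types.

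Of the 14 Eph receptors 2 fell and none passed as higher in the edgeR fit of all 6 libraries. Ephb3 (ENSMUSG00000005958, chromosome 16 from 21204755 to 21223305), a receptor for B-type ephrins, measured 86.6, 74.4 and 88.5 CPM in WT and 24.5, 36.2 and 53.5 CPM in KO. It was 2.18-fold lower (log2 fold change -1.13, SE 0.27, adjusted p = 0.0217), with no overlap, and the call ended without WT 6 (adjusted p = 0.0538), WT 7 (0.0666) or KO 2 (0.0813). Epha5 (ENSMUSG00000029245, chromosome 5 from 84054761 to 84417382), a receptor for A-type ephrins and the Eph gene with the highest mean FPKM, measured 287, 250 and 227 CPM in WT and 193, 173 and 168 CPM in KO. It was 1.43-fold lower (log2 fold change -0.52, SE 0.12, adjusted p = 0.0226), and its call ended without WT 6 (adjusted p = 0.0722), KO 2 (0.0832) or KO 3 (0.0618). Its share of the EphA sum in FPKM was 53.4% ± 1.73 in WT and 36.3% ± 3.64 in KO (SD, n = 3 each). The EphA sum itself was 28.0 ± 5.05 FPKM in WT and 30.3 ± 5.46 FPKM in KO. The other EphB genes ranged from -0.41 for Ephb1 to 0.36 for Ephb4, and the other EphA genes from -0.24 for Epha3 to 2.58 for Epha6. Ephb1 passed without KO 1 (-0.58, adjusted p = 0.0386), Epha2 without WT 7 (3.60, adjusted p = 0.0202), and Epha6, Epha8 and Epha7 without WT 3 (4.74, 2.92 and 2.75). With all 6 libraries Epha2, Epha6, Epha7 and Epha8 passed as higher in DESeq2, in limma-voom and without an expression filter. Epha1 is counted from few reads, and its span overlaps Zyx, which had many more, so its value is uncertain.

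Of the tested Slit ligands and Robo receptors, Slit2 and Robo3 rose and Robo2 fell. Slit2 (ENSMUSG00000031558, chromosome 5 from 47983138 to 48307733), a secreted repellent, measured 7.24, 4.27 and 4.31 CPM in WT and 14.8, 11.3 and 8.47 CPM in KO, 2.18-fold higher (log2 fold change 1.13, SE 0.32, adjusted p = 0.0376). Robo3 (ENSMUSG00000032128, chromosome 9 from 37415669 to 37433246), known from commissural axons, was scarce, at 0.729, 0.653 and 0.994 CPM in WT and 3.11, 3.08 and 1.47 CPM in KO, 3.19-fold higher (log2 fold change 1.67, SE 0.40, adjusted p = 0.0225). Robo2 (ENSMUSG00000052516, chromosome 16 from 73891839 to 74411825), a main Slit receptor, measured 83.2, 86.8 and 102 CPM in WT and 72.8, 50.6 and 60.6 CPM in KO, 1.48-fold lower (log2 fold change -0.56, SE 0.16, adjusted p = 0.0362). The groups overlapped for none of the 3 genes. The call of Slit2 ended without WT 6 (adjusted p = 0.128), WT 7 (0.119), KO 1 (0.110) or KO 2 (0.0961), and that of Robo3 without WT 6 (0.0912), WT 7 (0.0547), KO 1 (0.0697) or KO 2 (0.0784). That of Robo2 ended without WT 6 (adjusted p = 0.0893), WT 7 (0.116), KO 2 (0.0964) or KO 3 (0.0753).

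Slit1 was the main Slit by level, at 81.6, 44.3 and 41.7 CPM in WT and 69.6, 36.4 and 78.9 CPM in KO. The groups overlapped, and the log2 fold change was 0.14 (SE 0.36, adjusted p = 0.778). Per length it made up 95.7% ± 1.74 of the Slit sum in WT and 87.6% ± 5.31 in KO (SD, n = 3 each). Slit3 missed the threshold in edgeR at a log2 fold change of 1.81 (SE 0.87, adjusted p = 0.153) with overlapping groups. It passed without WT 3 (3.56, adjusted p = 0.00286) and in limma-voom. All 3 Slit ligands had positive values. Among the Robo genes Robo2 had the larger share in WT (56.7% ± 7.06) and Robo1 in KO (60.1% ± 4.29). Robo1 itself missed the threshold at a log2 fold change of 0.66 (SE 0.25, adjusted p = 0.0826). It passed without WT 3 (0.87, adjusted p = 0.0233) or KO 3 (0.84, adjusted p = 0.0489), and also without an expression filter, in DESeq2 and in limma-voom.

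Of the 7 tested netrin pathway genes 1 fell. Unc5c (ENSMUSG00000059921, chromosome 3 from 141465216 to 141834924), a receptor for repulsion from netrin-1, measured 12.8, 23.5 and 21.4 CPM in WT and 10.9, 7.99 and 11.7 CPM in KO. WT 3 lay just above the KO libraries, and the gene was 1.89-fold lower (log2 fold change -0.92, SE 0.28, adjusted p = 0.0451). Its call was kept without WT 3 and ended without WT 6 (adjusted p = 0.152), WT 7 (0.128), KO 1 (0.102), KO 2 (0.134) or KO 3 (0.0653). Ntn1, which encodes netrin-1 and had the highest mean FPKM of these genes, measured 41.7, 102 and 121 CPM in WT and 59.5, 54.4 and 60.2 CPM in KO. WT 3 lay below every KO library and the other WT libraries above, and Ntn1 missed the threshold at a log2 fold change of -0.60 (SE 0.35, adjusted p = 0.223). It passed without WT 3 (-0.94, adjusted p = 0.00149) and in limma-voom with quality weights (-0.81, adjusted p = 0.029). Dcc, the netrin receptor for attraction, stood at -0.51 (SE 0.31, adjusted p = 0.244) and Ntn4 at -0.06 (SE 0.15). Unc5a, Unc5b and Unc5d stood at 0.72, 0.61 and 1.37. None of these genes passed in the edgeR fit of all 6 libraries. With all 6 libraries Unc5d passed as higher in DESeq2, in limma-voom and without an expression filter. In limma-voom only, Unc5b passed as higher and Dcc as lower. Without WT 3 the Unc5 genes passed, Unc5a at 1.5 (adjusted p = 0.0398), Unc5b at 0.84 (adjusted p = 0.0184) and Unc5d at 2.17 (adjusted p = 0.00385).

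The genes that did not pass in the edgeR fit of all 6 libraries held most of the larger positive values. There were 14 such genes with a change beyond 2-fold, all of them positive, and in 12 of these WT 3 was the highest WT library. Picking genes with a large change that missed the threshold favours genes whose libraries scatter, so this count is a description only. Over all 39 genes with a positive value WT 3 was the highest WT library in 32, and over all 65 tested guidance genes in 46. The share of all tested genes with WT 3 as the highest WT library was not computed. WT 3 was the WT library nearest to the KO mean of log2(CPM + 0.5) in 58.5% of the 65 guidance genes, against 51.3% of all tested genes. Plxna4, Efna3 and Epha7, chosen as examples after their values were seen, show the pattern. Plxna4, a receptor for Sema6a and class 3 semaphorins, measured 70.4, 18.6 and 17.8 CPM in WT and 126, 72.6 and 115 CPM in KO. Efna3 measured 24.9, 6.38 and 5.35 CPM in WT and 40.4, 27.5 and 47.4 CPM in KO. Epha7, a receptor for A-type ephrins, measured 21.0, 5.27 and 5.54 CPM in WT and 51.8, 31.7 and 26.0 CPM in KO. In each gene WT 3 stood between the other WT libraries and the KO libraries. Their log2 fold changes were 1.56, 1.66 and 1.79 with all libraries and 2.52, 2.71 and 2.75 without WT 3. The neuronal marker sum was also highest in WT 3 within WT, at 2844 CPM against 1665 CPM in WT 6 and 1455 CPM in WT 7. So were the sums of cycling markers (345 against 196 and 180 CPM) and ventral interneuron markers (141 against 133 and 122 CPM). Those of oligodendrocyte lineage and intermediate progenitor markers were highest in WT 3 too, but lower in KO than in WT. Astrocyte, radial glia, mural and meningeal, and microglia sums were lowest in WT 3 within WT. The part of any of these cells in these values was not tested.

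**Figure D4:**
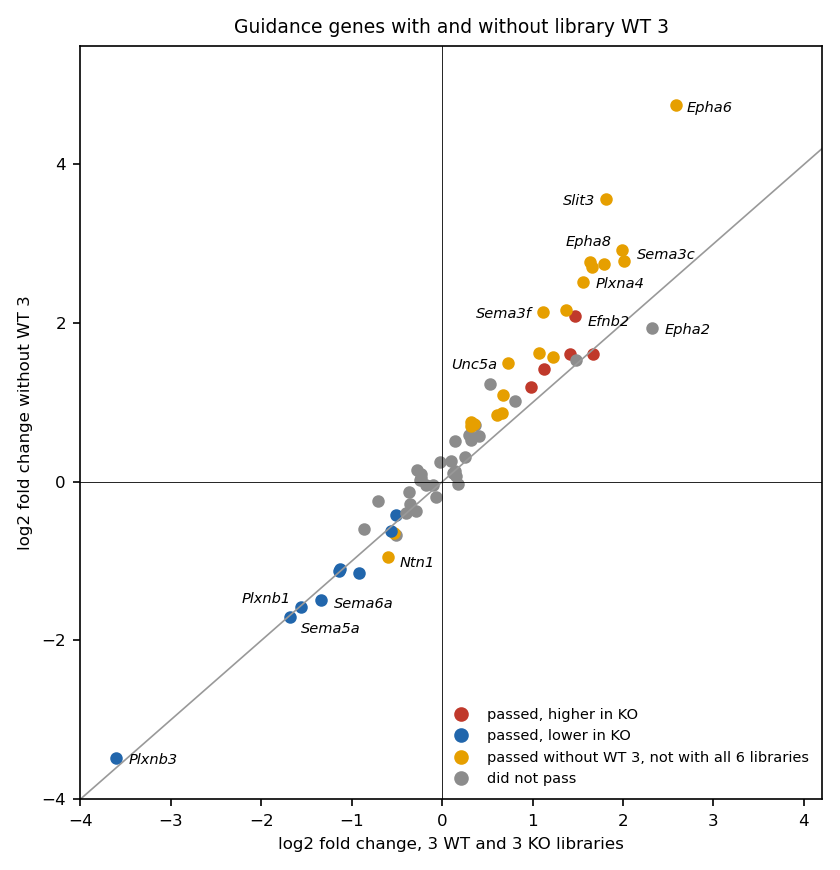
Log2 fold change of KO over WT with all 6 libraries (x axis) and without WT 3 (y axis) for the 65 tested guidance genes, with a line where both are equal. The genes that fell most stay near the line (Plxnb3 at -3.61 and -3.48), while genes such as Epha6 (2.58 and 4.74) and Slit3 (1.81 and 3.56) lie above it.

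In 11 of the 25 guidance genes without overlap (38.5% of those tested, background 48.6%) the edgeR test of all 6 libraries was not passed. KO lay above WT in 8 of them, namely Epha6, Epha7, Epha8, Efna3, Efna5, Plxna4, Sema4f and Sema7a, and below it in 3, namely Ephb1, Plxnc1 and Sema6d. Their adjusted p-values ran from 0.0517 for Epha8 to 0.121 for Ephb1 (edgeR quasi-likelihood test). With all 6 libraries the 8 genes with KO above WT did pass in DESeq2, in limma-voom with quality weights and without an expression filter. Of the 3 with KO below WT, Ephb1 and Sema6d passed in limma-voom, and Plxnc1 passed in none of these fits.

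Other genes of the guidance pathways were read from a pair of lists. Of 42 tested coreceptors and further cues 8 rose and 10 fell, or 42.9%, with a median log2 fold change of 0.18, where the background of all tested genes was 29.0%. Dscaml1, a relative of the netrin receptor Dscam, fell by 1.33 (SE 0.15, adjusted p = 0.00225, edgeR) and the adhesion gene Lrrc4, whose protein binds a netrin-G, fell by 0.92 (SE 0.12, adjusted p = 0.00285). The proteoglycan genes Sdc3 and Gpc4 rose, at log2 fold changes of 0.88 (SE 0.10, adjusted p = 0.00252) and 1.07 (SE 0.13, adjusted p = 0.00257). Of 60 intracellular effectors 12 rose and 9 fell, or 35%, with a median of 0.15. Rnd2 and Rnd3 fell by 3.00 (SE 0.21) and 1.48 (SE 0.15), the collapsin response mediator gene Dpysl4 fell by 1.23 (SE 0.21), and Srgap2, of a family whose proteins bind Robo receptors, rose by 0.77 (SE 0.10). Adjusted p-values of these 4 ran from 0.000812 to 0.00715 (edgeR quasi-likelihood test). All 8 calls named here held whichever library was left out, but these genes were chosen by the lowest p of each list. Other calls of the lists differed. Those of Dscam and Rgma held each time, and those of Chl1 and Crmp1 held only without WT 3.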

How the data were processed

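The deposited table gave whole-number read counts per gene for 6 libraries, not normalised by the authors, per the file headers and column sums, and FPKM values per gene made by the authors, whose columns repeat the count headers. Tools listed in the submitters' processing notes are DESeq2 1.16.1, featureCounts 1.5.0-p3 and HISAT2 2.0.5, with the build mm10. For strand use and the annotation no statement was found, so neither is given. The FPKM gave back the counts within 0.05 reads in all but 4 of 327192 values, none of a guidance gene.

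KO was compared with WT in 1 edgeR 4.0.16 fit (R 4.3.3) of all genes, with TMM, the filterByExpr defaults, a two-sided quasi-likelihood F test and Benjamini-Hochberg adjustment over 16606 genes at 0.05. The SE is the log2 fold change divided by the square root of F. At these depths 3 reads are 0.142 to 0.173 CPM. The biological coefficient of variation was 26.5%. The scripts were tested on simulated data. With 3 libraries a group, exact permutation allows no p below 0.1 and was not used. How reads in overlapping genes were counted is not stated. Epha1 and Ntn5 overlap a gene whose mean count exceeds 10% of their own.

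Members and lists were chosen with earlier results of these data known. Values per library are given for genes past the threshold, up to 6 per family, and the gene of highest mean FPKM in each family, with up to 4 genes of each other list by lowest p. Alternatives were RLE factors, library totals, other filters, protein-coding genes only, DESeq2 1.42.0, limma-voom and limma 3.58.1 on log2 of FPKM plus 1 or 0.1 (genes averaging 0.5 FPKM or more), testing against 1.5-fold, and leaving out each library. RefSeq starts nearest the table's gene start were used for promoters.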

Additional observations from a re-analysis of the deposited data

How the results depend on the processing

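No alternative reversed a guidance gene that passed. The count of guidance genes higher in KO, 5 as reported, was 17 without a filter, 18 with DESeq2, 22 with limma-voom, 9 on log2(FPKM + 1) and 0 in the test against 1.5-fold, and ran from 0 to 24 when 1 library was left out. The count lower in KO, 9 as reported, was 5 in the test against 1.5-fold and ran from 5 to 11 with 1 library left out. DESeq2, limma-voom and the fit without a filter kept all 14 calls, and both FPKM scales lost Epha5 (adjusted p = 0.0506 and 0.051), Robo2 and Unc5c, while Robo3 and Slit2 fell under their expression filter and were not tested there. Library totals lost Robo2 and Unc5c. Among all tested genes, 4133 higher and 3919 lower passed with limma-voom and 751 and 771 in the test against 1.5-fold, and with 1 library left out the counts ran from 1027 to 3500 higher and from 1151 to 3141 lower. The cause of these differences was not tested, beyond the stricter null of the test against 1.5-fold and the fewer libraries. Slit1, which did not pass in any fit, turned to -0.0034 without WT 6, -0.035 without WT 7 and -0.069 without KO 3, in a range of -0.069 to 0.52 (without WT 3). Ash2l did not pass under any setting. No scaling moved the median over all genes by more than 0.06 (library totals). No paired analysis was possible because the groups share only the replicate number 3. Of the 68 genes 18 were under a mean of 1 FPKM, and 3 had too few reads to be tested.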
